A study of Mus musculus with 1646 samples.

Results

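Messenger RNA of 8 Wnt ligands, *Wnt2*, *Wnt2b*, *Wnt4*, *Wnt5a*, *Wnt5b*, *Wnt6*, *Wnt9a* and *Wnt11*, was followed through the fibroblasts and mural cells of the adult mouse colon. The 8 were taken by symbol from the count table, which holds 46517 genes and all 19 mouse Wnt ligands. All 8 were present in the table and all 8 had enough counts to be tested. The other 11 ligands were used to set the size of the whole Wnt pool.

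The cells came from adult male reporter mice aged 10 to 20 weeks, sorted singly from dissociated colon into plates and sequenced as Smart-seq2 libraries. They numbered 1646, of which 34.4% came from Acta2GFP mice, 5.53% from Cspg4dsRED, 13.8% from PdgfraGFP and 46.2% from PdgfrbGFP mice, on 2, 1, 2 and 4 plates. In these lines a fluorescent protein follows *Acta2* (smooth muscle actin), *Cspg4* (the NG2 proteoglycan), *Pdgfra* or *Pdgfrb*, so each line sampled a different mix of cells, and all lines had been backcrossed to C57Bl6/J. The study asked how fibroblasts and mural cells differ within and between organs, and it ordered the colon fibroblasts from the base of the crypt to its apex. The PdgfraGFP reporter is an allele of *Pdgfra* itself and marks nuclei, the other 3 are transgenes, and no mouse was treated. The labels name no mouse, so the reporter line stood as the sample and p-values measure only the spread between lines, which also differ in sort and, for Acta2GFP, in an added elastase step.

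The labels give each cell a cluster from 1 to 8, drawn by the study from the same counts, so a test between clusters is not independent of how they were formed. Fibroblasts filled 5 of them. In the study's order from crypt base to apex these were cluster 7 (13.5% of all cells), cluster 5 (25.8%), cluster 1 (29.3%), cluster 6 (2.73%) and cluster 2 (7.96%). Mural cells filled 3, namely cluster 3 (vascular smooth muscle, 8.57%), cluster 4 (pericytes, 8.63%) and cluster 8 (interstitial smooth muscle, 3.4%). Positions in the tissue were not measured here. Marker genes followed these names, with an exception in cluster 6: a list of 6 fibroblast genes summed to mean levels of 5399.6 to 6323 in the fibroblast clusters against 388.6, 1095 and 1584 in clusters 3, 4 and 8, and in clusters 7 and 2 *Cd34* stood at 1293 and 41.3 and *Tnc* at 16.9 and 1972. Cluster 6 also held smooth muscle transcripts, whose 6 listed genes summed to 590.6 and 1780.6 in its 2 lines against at most 330.5 in any line of the other fibroblast clusters. A list of 4 pericyte genes summed to 203.9 and 211.5 in its lines, against at most 125.7 in those other lines. In the lines of cluster 2, a list of 2 interstitial smooth muscle genes summed to 253.8 to 355.7. It reached at most 136.9 in any line of the other fibroblast clusters and 1809 in cluster 8. A level here is a cell's count scaled to 500000 gene counts, averaged over the cells of a line and then over lines. Cells held 47598 to 1494292 gene counts, with medians of 118251.5 in cluster 8 to 359677 in cluster 3.

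Wnt proteins are lipid-modified secreted ligands that bind Frizzled receptors. Canonical ligands stabilise beta-catenin, which acts with TCF/LEF factors on target genes, whereas non-canonical ligands steer cell polarity and movement without it. In the gut, stromal Wnt ligands and R-spondins keep the stem cells at the crypt base, and epithelial cells differentiate as they move toward the lumen.

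RefSeq promoters of GRCm38.p6 were available for 7 of the 8 members, with *Wnt5a* the member named only. The 250 bases before the start are shown for *Wnt9a* and *Wnt11*, which had their highest level in cluster 7, and for *Wnt5b*, which had its highest level in cluster 2, since in these 3 the window lay upstream of the annotated gene or overlapped it by no more than 2 bases. The window of *Wnt6* did so too and is not shown, as *Wnt6* was hardly detected. They lie at chr11:59306680-59306929 (plus strand), chr7:98834862-98835111 (plus) and chr6:119544348-119544597 (minus). Capitals mark matches, on either strand, to the TCF/LEF core CTTTGA. They also mark the TATA box, spelled TATAAA. GC boxes, with the letters GGGCGG, are marked in the same way.
Wnt9a: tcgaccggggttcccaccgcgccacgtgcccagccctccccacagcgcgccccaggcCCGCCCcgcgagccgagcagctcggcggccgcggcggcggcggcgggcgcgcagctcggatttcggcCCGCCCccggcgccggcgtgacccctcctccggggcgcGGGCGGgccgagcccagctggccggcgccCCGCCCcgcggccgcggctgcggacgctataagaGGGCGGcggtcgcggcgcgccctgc
Wnt11: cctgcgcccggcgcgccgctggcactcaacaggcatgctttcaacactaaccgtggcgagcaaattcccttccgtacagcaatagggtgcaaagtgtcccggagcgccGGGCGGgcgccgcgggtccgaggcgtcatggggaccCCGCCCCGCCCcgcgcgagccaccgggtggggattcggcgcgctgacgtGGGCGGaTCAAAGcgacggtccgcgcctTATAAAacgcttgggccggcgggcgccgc
Wnt5b: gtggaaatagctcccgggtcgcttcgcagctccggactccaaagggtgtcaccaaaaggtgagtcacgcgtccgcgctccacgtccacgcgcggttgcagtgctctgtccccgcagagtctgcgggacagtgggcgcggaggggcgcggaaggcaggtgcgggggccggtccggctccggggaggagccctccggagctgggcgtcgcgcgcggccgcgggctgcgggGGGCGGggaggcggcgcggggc
*Wnt11* was the only member of the 7 with a TCF/LEF core or a TATA box in this window, each held once, against 13.8% and 12.4% of 32851 mouse promoters. GC boxes were held by all 7, with 8 in *Wnt4*, 6 in *Wnt6*, 5 in *Wnt9a*, 4 in *Wnt11*, 3 in *Wnt2b* and 1 each in *Wnt2* and *Wnt5b*, and 32.7% of all promoters held at least 1. No member held the forkhead core GTAAACA, present in 3.17% of promoters. The bases were 84.4% G or C in *Wnt9a*, 70.8% in *Wnt11* and 75.2% in *Wnt5b*, and the median promoter had 52.4%. Such matches describe letters in a window and no binding was measured.

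The leading ligand changed along the crypt order. With levels divided by exon length so that genes could be compared, *Wnt2* led in every line of cluster 7 and *Wnt5a* in every line of clusters 6 and 2, whereas the leader differed between lines in clusters 5 and 1. *Wnt2* took 60.3% ± 7.29 (SD, n = 3 lines) of the summed per-kilobase level of the 19 Wnt ligands in cluster 7, followed by *Wnt9a* with 12.5% ± 1.93, *Wnt2b* with 10.0% ± 5.88 and *Wnt11* with 6.60% ± 3.03. In cluster 1, *Wnt2b* took 46.9% ± 17.1, *Wnt2* 25.9% ± 15.6, *Wnt5b* 12.1% ± 2.88 and *Wnt4* 9.42% ± 2.60 (n = 3), so that the shares of the first pair lay within their spread, and *Wnt2* stood above *Wnt2b* in PdgfrbGFP (35.5% and 31.7%). In cluster 2, *Wnt5a* took 70.4% ± 8.14, *Wnt5b* 22.2% ± 8.75 and *Wnt4* 4.46% ± 1.17 (n = 3), and *Wnt5a* took 70.7% ± 3.28 of cluster 6 (n = 2). Cluster 5 had no clear leader: *Wnt2b* at 29.7% ± 21.5 and *Wnt2* at 20.9% ± 13.6 lay within each other's spread over 4 lines. The leader there was *Wnt2* in Acta2GFP (37.8%), *Wnt11* in Cspg4dsRED (52.8%), *Wnt2b* in PdgfraGFP (61.5%) and *Wnt9a* in PdgfrbGFP (21.6%, beside 21.3% for *Wnt2b*).

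The pool as a whole did not follow the crypt order. Its summed per-kilobase level went from 66.1 ± 14.3 (SD) in cluster 7 through 24.2 ± 9.43, 50.8 ± 5.32 and 49.7 ± 14.4 in clusters 5, 1 and 6 to 82.7 ± 11.9 in cluster 2. Among mural cells it was 3.11 ± 2.69 in cluster 3 and 6.19 ± 1.21 in cluster 4, and the single line of cluster 8 had 18.2. Every line's value in clusters 7, 1, 6 and 2 was above every line's value in cluster 5, and the ranges of clusters 7 and 2 overlapped. These sums are descriptions with no test.

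**Figure D1:**
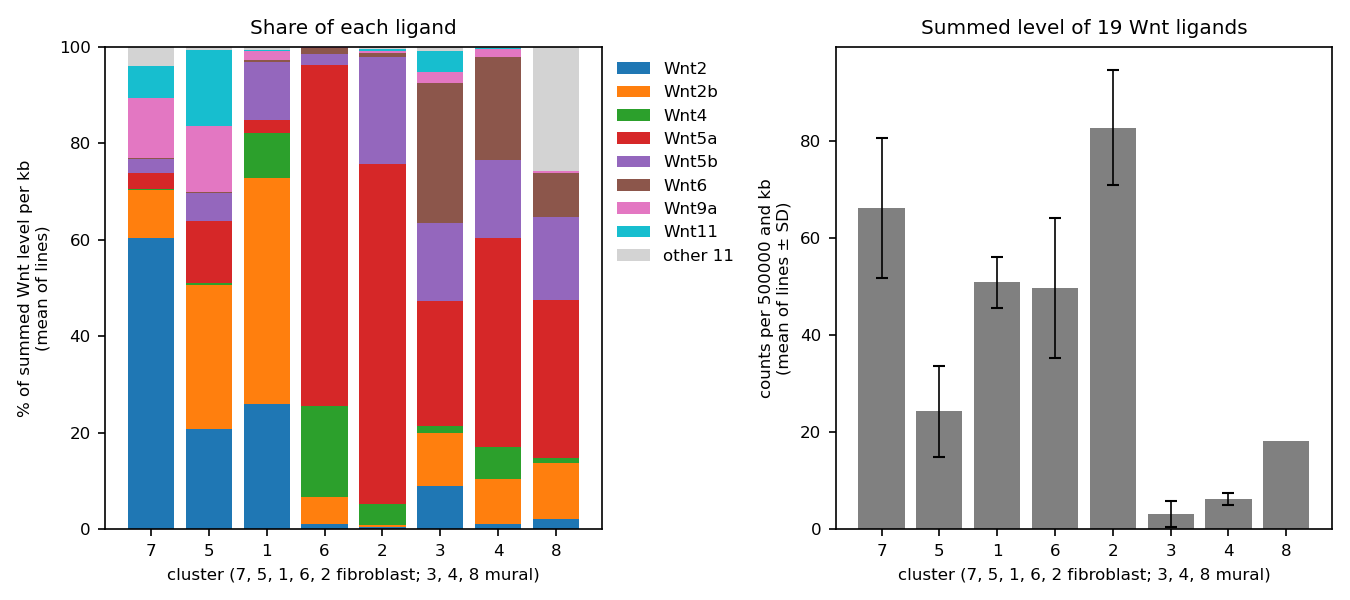
The left panel stacks each ligand's share of the summed Wnt level per kilobase of exon (vertical axis, percent, mean of reporter lines) for each cluster, fibroblasts in crypt order and then mural cells, with the 11 other ligands in grey. The right panel gives the summed level of the 19 ligands (counts per 500000 gene counts per kb, mean of lines with the SD as bar, and no bar for cluster 8 with 1 line), where *Wnt2* fills 60.3% of cluster 7 and *Wnt5a* 70.4% of cluster 2.

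*Wnt2*, a canonical ligand of gut mesenchyme, was the most abundant member of cluster 7. It lies at chr6:17988940-18030585 (minus strand; positions of genes are GRCm38, GENCODE vM21). Its level in cluster 7 was 90.9 in Acta2GFP, 118.2 in PdgfraGFP and 63.8 in PdgfrbGFP. In cluster 2 it was 0.285, 0.0593 and 2.10 in the same lines. Every cluster 7 value was thus far above every cluster 2 value. Between them, cluster 5 held 21.4, 5.79, 3.49 and 11.8 in Acta2GFP, Cspg4dsRED, PdgfraGFP and PdgfrbGFP, the Cspg4dsRED value resting on 1 of 13 cells, and cluster 1 held 43.8, 8.26 and 39.2 in Acta2GFP, PdgfraGFP and PdgfrbGFP. In each of the 3 lines with all these clusters the order was cluster 7, then 1, then 5, although the ranges of clusters 1 and 5 overlapped. Both lines of cluster 6 (1.66 and 0.560) and every mural line (at most 2.90) were low.

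*Wnt9a*, a ligand known from joint formation, lies at chr11:59306928-59333552 (plus) and was highest at the base. It stood at 25.2, 29.4 and 26.4 in the Acta2GFP, PdgfraGFP and PdgfrbGFP cells of cluster 7. In cluster 5 it was 14.96, 0.400, 13.6 and 22.96 over the 4 lines, the low value being that of Cspg4dsRED, and in cluster 1 it was 3.01, 1.91 and 3.81, with 20.6 in 8 further cells of Cspg4dsRED, 2 of which had a count. These lines of cluster 7 lay above those of cluster 5, but 5 Cspg4dsRED cells of cluster 7 had 0, and by plate the clusters overlapped, with 16.5 to 45.5 in cluster 7 and 0.400 to 30.0045 in cluster 5. Clusters 5 and 1 overlapped through the Cspg4dsRED value of cluster 5. No line of clusters 6 and 2 or of the mural clusters exceeded 1.53.

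*Wnt11*, a ligand known for convergent extension movements, lies at chr7:98835112-98855195 (plus). It was 10.7, 19.1 and 22.5 in the Acta2GFP, PdgfraGFP and PdgfrbGFP cells of cluster 7, the PdgfraGFP value resting on 2 of 15 cells. In cluster 5 it was 3.10, 23.4, 4.21 and 4.98, the highest being the 4 positive cells among 13 of Cspg4dsRED. These ranges overlapped. Cluster 1 held 0.0756 to 1.35, cluster 6 had no count in either of its lines, cluster 2 held 0.329 to 4.55 and mural lines at most 0.161. The highest value of cluster 2 came from 1 cell.

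*Wnt2b*, a canonical ligand close in sequence to *Wnt2*, lies at chr3:104945272-104961921 (minus) and peaked in the middle of the order. Its level in cluster 1 was 103.7 in Acta2GFP, 128.5 in PdgfraGFP and 65.3 in PdgfrbGFP. Cluster 7 held 18.2, 58.01 and 14.4 in these lines, and cluster 5 held 23.1, 75.4 and 28.5, with 6.39 in Cspg4dsRED. Cluster 1 was the highest in each of the 3 lines, but its range overlapped that of cluster 5. In cluster 2 the level was 0.277, 0.0981 and 3.13, and in cluster 6 it was 17.96 in Acta2GFP and 0.536 in PdgfraGFP. PdgfrbGFP was the highest line of cluster 2 for *Wnt2*, *Wnt2b* and *Wnt9a* alike.

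*Wnt4* signals in both ways depending on the tissue and lies at chr4:137277489-137299726 (plus). It was near 0 at the base, with 0.137 to 0.616 in the lines of cluster 7 and 0 to 0.913 in those of cluster 5. From cluster 1 on it was present in each line of at least 10 cells: 17.7, 24.2 and 17.4 in cluster 1, 22.2 in Acta2GFP and 61.02 in PdgfraGFP of cluster 6, and 15.9, 12.6 and 16.7 in cluster 2. None of these lines overlapped a line of clusters 7 or 5. Smaller groups did, with 0.165 in 8 Cspg4dsRED cells of cluster 1 and 0.267 in 9 PdgfrbGFP cells of cluster 6, and with them the mean of cluster 6 went from 41.6 to 27.8. Mural lines held at most 3.33.

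*Wnt5a*, the classical non-canonical ligand, lies at chr14:28504750-28527448 (plus) and had the highest level of any member in any cluster. In cluster 2 it was 477.4 in Acta2GFP, 481.4 in PdgfraGFP and 397.3 in PdgfrbGFP, and in cluster 6 it was 226.03 in Acta2GFP and 320.6 in PdgfraGFP. The lines of cluster 2 lay above those of cluster 6, and cluster 6 above every other cluster. By plate clusters 2 and 6 overlapped, with 273.4 to 579.7 and 255.1 to 396.9, and on 1 PdgfraGFP plate cluster 6 (396.9) stood above cluster 2 (363.5). The lower fibroblast clusters held 13.1, 17.5 and 20.6 (cluster 7), 25.8, 6.20, 24.3 and 50.4 (cluster 5) and 12.5, 2.30 and 16.8 (cluster 1). Within PdgfrbGFP these low values differed by plate: cluster 5 held 98.3, 78.2, 14.7 and 11.6 on its 4 plates, the highest from 11 cells. Cluster 7 held 49.5 on the plate with 78.2 and 4.23 on the plate with 14.7. Among mural cells, the single line of cluster 8 held 46.6 (11.8 in 4 further cells of PdgfrbGFP), cluster 4 held 28.5 in Cspg4dsRED and 14.6 in PdgfrbGFP, and cluster 3 held 2.06, 0.686 and 1.57.

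*Wnt5b*, its paralog at chr6:119432531-119544347 (minus), shared the peak in cluster 2 at a lower level, with 26.3, 77.4 and 46.6 in Acta2GFP, PdgfraGFP and PdgfrbGFP. Cluster 1 followed with 14.2, 14.5 and 19.6, and the lines of cluster 2 did not overlap it, but by plate they did, with 14.7 to 129.7 in cluster 2 and 9.01 to 64.2 in cluster 1. The lines of clusters 7 and 5 held at most 11.9 and those of cluster 6 at most 6.84. Single plates reached 18.1 in cluster 7, 54.9 in cluster 5 (from 11 cells) and 13.6 in cluster 6. The 9 PdgfrbGFP cells of cluster 6, too few to count as a line, had 29.4 (from 3 of them), which lies above the lowest line of cluster 2 and lifts the mean of cluster 6 from 3.60 to 12.2. *Wnt6*, a canonical ligand at chr1:74771892-74785322 (plus), was hardly detected, with 1394 counts in 66 of the 1646 cells. Its mean exceeded 3.62 in no cluster, its highest line value, 7.38 in the PdgfrbGFP cells of cluster 3, came from 3 cells, and no 2 neighbours in its order of clusters differed beyond their range.

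**Figure D2:**
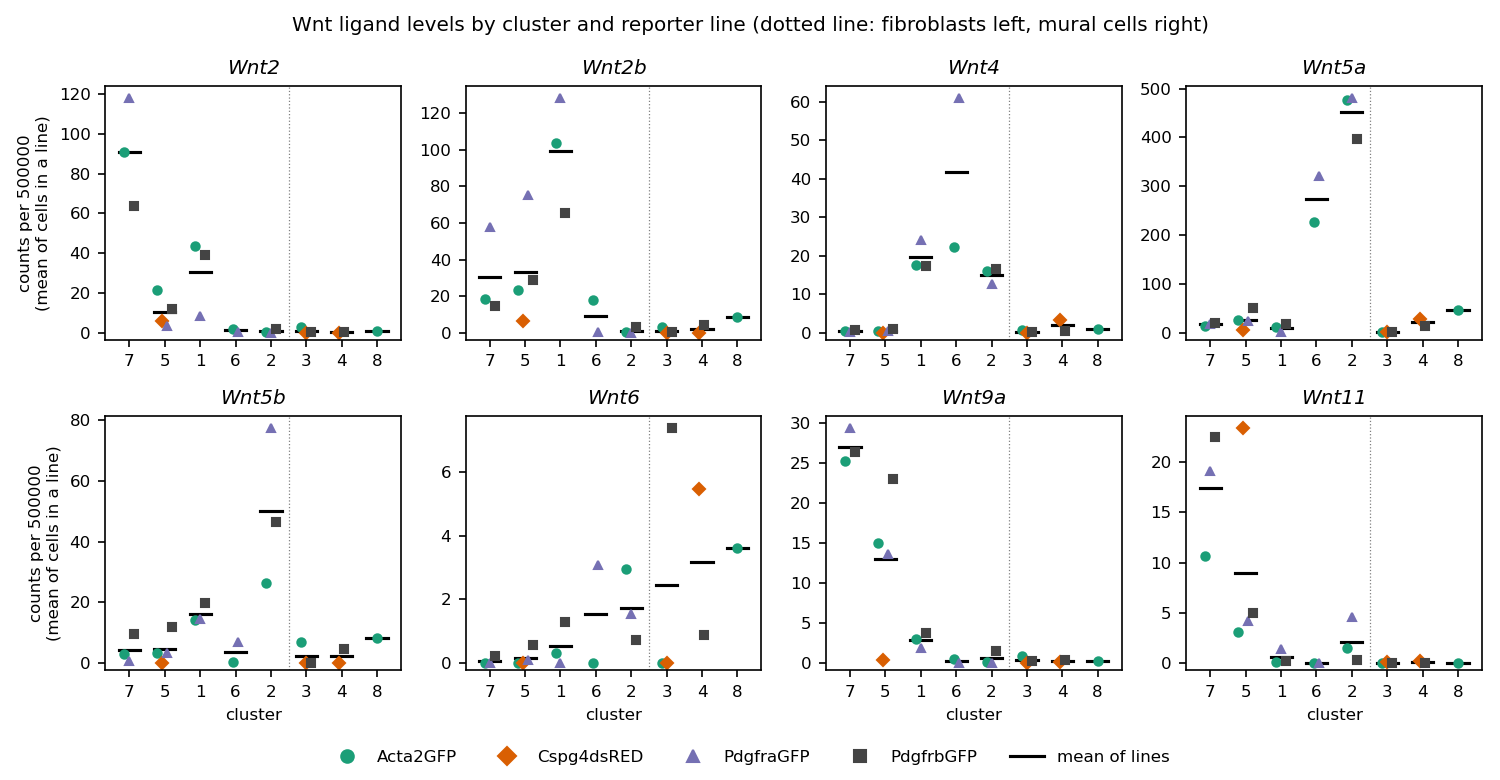
The level of each member (vertical axis, counts per 500000 gene counts, with its own scale in each panel) is plotted by cluster, with a symbol for every reporter line that had at least 10 cells in the cluster and a bar at the mean of lines. *Wnt2*, *Wnt9a* and *Wnt11* have their highest mean in cluster 7, *Wnt2b* in cluster 1, *Wnt4* in cluster 6 and *Wnt5a* and *Wnt5b* in cluster 2.

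The ends of the crypt order were compared by summing raw counts over the cells of each line in cluster 2 and cluster 7 and testing the 3 sums of each with edgeR's quasi-likelihood test. At the apex *Wnt5a* and *Wnt4* were higher and *Wnt2* was lower. *Wnt5a* rose by 5.16 on the log2 scale (SE 0.72, adjusted p = 0.000278) and *Wnt4* by 5.53 (SE 1.25, adjusted p = 0.0144), while *Wnt2* fell by 6.59 (SE 1.54, adjusted p = 0.0179). The log2 differences of *Wnt9a* (-5.50, SE 1.63, adjusted p = 0.0689), *Wnt2b* (-4.75, SE 1.60, adjusted p = 0.123) and *Wnt11* (-3.56, SE 1.41, adjusted p = 0.212) did not pass, and neither did those of *Wnt5b* (3.25, SE 1.82, adjusted p = 0.429) and *Wnt6* (4.46, SE 2.53, adjusted p = 0.438). The members called were 2 of 8 higher and 1 of 8 lower, against 2.12% higher and 1.55% lower of the 21739 genes tested, and the median difference was -0.15 over members and 0 over all genes. Only *Wnt5a* was called when Acta2GFP, PdgfraGFP or PdgfrbGFP was left out (its adjusted p was 0.0478, 0.00459 and 0.00572), and without plate 075s its difference was 5.32 (adjusted p = 0.000258). DESeq2, which called 8.55% of all genes, called *Wnt9a*, *Wnt2b* and *Wnt11* lower as well, and with the line as a block *Wnt9a* was also called (adjusted p = 0.0322).

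A list of endothelial genes stood higher in the lines of cluster 7 (summed level 133.99 to 227.5) and cluster 5 (97.7 to 148.1) than in any other line (at most 32.1), nearly all from *Tek*, while *Pecam1* and *Cdh5* were at or below 12.9 and 0.687 in every cluster mean. Lists of immune, epithelial and glial genes summed to at most 37.2 in any line of any cluster, and a mesothelial list to at most 10.4. A list of 2 genes for interstitial cells of Cajal moved with the apex: it summed to 98.1 to 219.6 in the lines of cluster 2 against 0.0370 to 1.5001 in cluster 7 and at most 54.01 in clusters 5, 1 and 6, and to 142.8 to 447.2 in clusters 3 and 4. Nearly all of it was *Ano1*, a chloride channel (mean 170.8 in cluster 2), while *Kit*, the receptor that defines these cells, had a mean of 0.503 in cluster 2 and at most 8.85 in any cluster. The list of 2 interstitial smooth muscle genes was also higher in the lines of cluster 2 (253.8 to 355.7) than in those of cluster 7 (28.6 to 43.9). The part of all these transcripts in the Wnt differences was not tested.

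Along the order, neighbours were compared next. Between cluster 7 and cluster 5 no member passed the edgeR test, against 0.0138% of genes higher and 0% lower. At an unadjusted p under 0.05 there was 1 member, *Wnt2*, against 6.28% of genes in either direction, with a log2 difference of -2.38 (SE 1.14, adjusted p = 0.784). DESeq2 and limma also called 0 members here. The medians were -0.16 over members and 0.08 over all genes.

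*Wnt4* came up between cluster 5 and cluster 1. It rose by 5.72 on the log2 scale (SE 1.11, edgeR adjusted p = 0.0387) and was the 1 member called higher, against 0.129% of all genes. None was called lower, against 0.0552%, although *Wnt11* (-4.40, SE 1.44, adjusted p = 0.425) and *Wnt5a* (-1.43, SE 0.59, adjusted p = 0.574) had unadjusted p-values of 0.00667 and 0.0247 (3.62% of genes were lower at an unadjusted p under 0.05), and DESeq2 called *Wnt11* lower. The median over members was 1.14 and over all genes 0.02. The *Wnt4* call was lost without Acta2GFP (adjusted p = 0.872), PdgfraGFP (0.318) or PdgfrbGFP (0.222), with sums of 3 or more cells (0.145), and with the line as a block (0.0535).

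*Wnt5a* came up between cluster 1 and cluster 6. It rose by 4.69 (SE 0.73, edgeR adjusted p = 0.00508), the 1 member called higher against 0.189% of genes, and no member was called lower against 0.603%. The log2 differences of *Wnt2* (-5.19, SE 1.78, adjusted p = 0.196) and *Wnt9a* (-4.10, SE 1.94, adjusted p = 0.370) were larger than their errors without passing, whereas that of *Wnt4* was 0.11 (SE 1.14, adjusted p = 0.997). Among the lower members 3 of 8 had an unadjusted p under 0.05 (*Wnt2*, *Wnt9a* and *Wnt11*), against 10.1% of genes, and DESeq2 and limma called *Wnt2*. All genes had a median of -0.47 here, or -0.11 under DESeq2's size factors, and the members -2.19, so changes are relative to that shift. The *Wnt5a* call was lost without Acta2GFP (adjusted p = 0.178) or PdgfraGFP (0.0835), each of which left cluster 6 with a single line.

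Between cluster 6 and cluster 2 no member was called by edgeR, against 0.695% of genes higher and 0.262% lower. *Wnt5a* differed by 0.80 (SE 0.69, adjusted p = 0.677), *Wnt5b* by 3.10 (SE 2.14, adjusted p = 0.561) and *Wnt2b* by -3.11 (SE 1.57, adjusted p = 0.379). *Wnt11*, which had no count in the sums of cluster 6, was the 1 member with an unadjusted p under 0.05 (0.00800), against 14.5% of genes, and the 1 member DESeq2 called. The medians were 0.47 over members and 0.18 over all genes.

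Mural cells were compared within themselves by the same test. Against vascular smooth muscle (cluster 3), *Wnt5a* was higher in pericytes (cluster 4) by 3.47 on the log2 scale (SE 0.71, edgeR adjusted p = 0.0215). It was the 1 member called, against 0.621% of genes higher and 0.198% lower, and the members' median was 0.52 against 0 over all genes. No lower member had an unadjusted p under 0.05, against 5.27% of genes, and DESeq2 and limma called none lower, but DESeq2 also called *Wnt4* higher in pericytes. In pericytes 98.04% of the summed *Wnt5a* level lay in 15 cells, about 1 in 10, and the call was lost without Acta2GFP (adjusted p = 0.222), Cspg4dsRED (0.0639) or PdgfrbGFP (0.163) and with sums of 3 or more cells (0.169). Interstitial smooth muscle (cluster 8) had a single sum, Acta2GFP, so its difference from cluster 3 has no test: *Wnt5a* stood at 46.6 in that line and at 11.8 in 4 PdgfrbGFP cells, against at most 2.06 in the lines of cluster 3.

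Fibroblasts and mural cells were compared over class sums, with 4 lines of fibroblasts and 3 of mural cells (PdgfraGFP had too few). *Wnt2*, *Wnt9a*, *Wnt11* and *Wnt5a* were higher in the class sums of fibroblasts, though *Wnt5a* was not higher in every fibroblast cluster. *Wnt9a* had levels of 11.7, 6.08, 6.38 and 14.02 in the Acta2GFP, Cspg4dsRED, PdgfraGFP and PdgfrbGFP fibroblasts and 0.455, 0.0924 and 0.366 in the Acta2GFP, Cspg4dsRED and PdgfrbGFP mural cells, and rose by 5.79 (SE 0.91, edgeR adjusted p = 0.00568). *Wnt11* had 3.80, 13.2, 3.98 and 5.03 against 0.0137, 0.118 and 0.0335, and rose by 6.81 (SE 1.26, adjusted p = 0.0121). *Wnt2* had 45.4, 27.7, 11.3 and 29.4 against 1.56, 0.0434 and 0.249, and rose by 6.10 (SE 1.20, adjusted p = 0.0158). The groups did not overlap for any of these 3, nor for *Wnt5a* and *Wnt2b* (17.5 to 62.5 against 0.0507 to 6.48), so that 5 of 8 members had every fibroblast line above every mural line, against 10.7% of all genes. *Wnt6* was the 1 member with every line below, against 9.38%.

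*Wnt5a* had 62.9, 40.9, 163.5 and 52.9 in fibroblasts against 29.6, 15.2 and 8.93 in mural cells, and rose by 2.84 (SE 0.66, adjusted p = 0.0329). By cluster, only clusters 2 and 6 stood above every mural cluster. The means of clusters 7, 5 and 1 were below the single line of mural cluster 8 (46.6). Their lines overlapped those of pericytes (14.6 to 28.5). The highest fibroblast value of *Wnt5a* was that of PdgfraGFP. This line had the most cells of cluster 2 (55, against 44 in Acta2GFP, 30 in PdgfrbGFP and fewer in Cspg4dsRED). It also had the most cells of cluster 6, and fewer fibroblasts than Acta2GFP and PdgfrbGFP. The part of this mix of clusters in the level was not tested. *Wnt2b* (3.69, SE 1.02, adjusted p = 0.0631), *Wnt4* (3.48, SE 1.12, adjusted p = 0.104) and *Wnt5b* (1.29, SE 1.72, adjusted p = 0.776) did not pass. *Wnt6* had a higher level in mural cells, 2.24, 2.86 and 3.67 against 0.387, 0, 0.757 and 0.812, with a log2 difference of -2.85 (SE 1.20, adjusted p = 0.216, unadjusted p = 0.0397), and DESeq2 and limma called it lower in fibroblasts. Few mural cells carried this level: 3, 2 and 4 cells of clusters 3, 4 and 8 had a count, and the Cspg4dsRED value rested on 1 cell. Unthinned shares were 2.13%, 1.41% and 7.14% in these clusters and 3.59% to 6.67% in the fibroblast clusters. The calls were 4 of 8 higher and 0 of 8 lower against 3.21% and 3.36% of 19173 genes, with medians of 3.59 over members and -0.03 over all genes. With the line as a block *Wnt5a* was lost (adjusted p = 0.0587) and the other 3 kept (0.0278 to 0.0404), and without PdgfrbGFP none of the 4 was called (adjusted p = 0.0835 to 0.162).

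**Figure D3:**
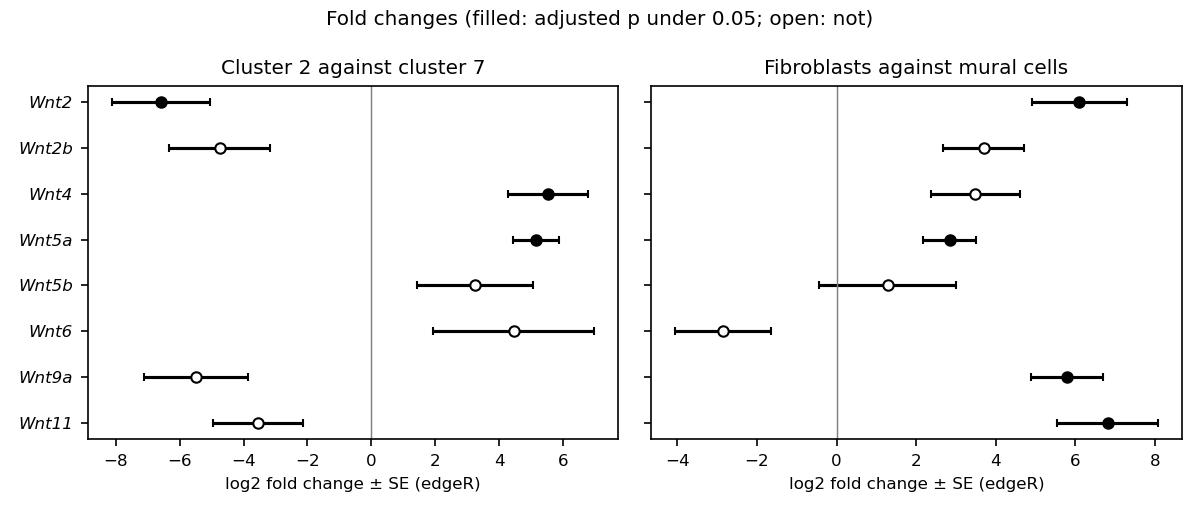
The log2 fold change of each member (horizontal axis, edgeR, bars of 1 SE) is drawn for cluster 2 against cluster 7 on the left and for fibroblasts against mural cells on the right, with filled points for an adjusted p under 0.05. *Wnt5a* and *Wnt4* are filled on the higher side and *Wnt2* on the lower side at left, and *Wnt2*, *Wnt5a*, *Wnt9a* and *Wnt11* are filled at right.

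The share of cells with a count was taken over the cells of all lines together, after thinning each cell to 50000 gene counts. *Wnt5a* was found in 93.1% of cluster 2 and 77.8% of cluster 6 cells, against 29.5%, 38.7% and 29.1% in clusters 7, 5 and 1. Of mural cells it was found in 42.6% of cluster 8, 12.9% of cluster 4 and 8.57% of cluster 3. Unthinned, it was found in 96.9% of cluster 2 (95% exact interval 92.4 to 99.2, counting error only) and 26.2% of cluster 3. *Wnt2* was found in 57.3% of cluster 7 cells, 29.7% of cluster 1 and 22.9% of cluster 5, and in 76.2% of cluster 7 unthinned (70.1 to 81.7). *Wnt2b* was found in 47.8% of cluster 1, 30.9% of cluster 5 and 25.5% of cluster 7. The cluster with the largest share was also the one with the highest level for *Wnt5a*, *Wnt2* and *Wnt2b*.

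Other members sat in a minority of cells even where their level peaked. *Wnt4* was found in 20.0%, 28.9% and 24.4% of thinned cells in clusters 1, 6 and 2, and in 5.45% and 4.72% in clusters 7 and 5. *Wnt5b* was found in 29.8% of cluster 2, *Wnt9a* in 27.7% and *Wnt11* in 23.2% of cluster 7. Unthinned, *Wnt4* had at least 1 count in 22.9% of cluster 7 but at least 5 counts in 0% of its cells, which allows a share of up to 1.35%. *Wnt6* was found in 1.41% to 7.14% of unthinned cells in every cluster, fibroblast and mural alike.

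**Figure D4:**
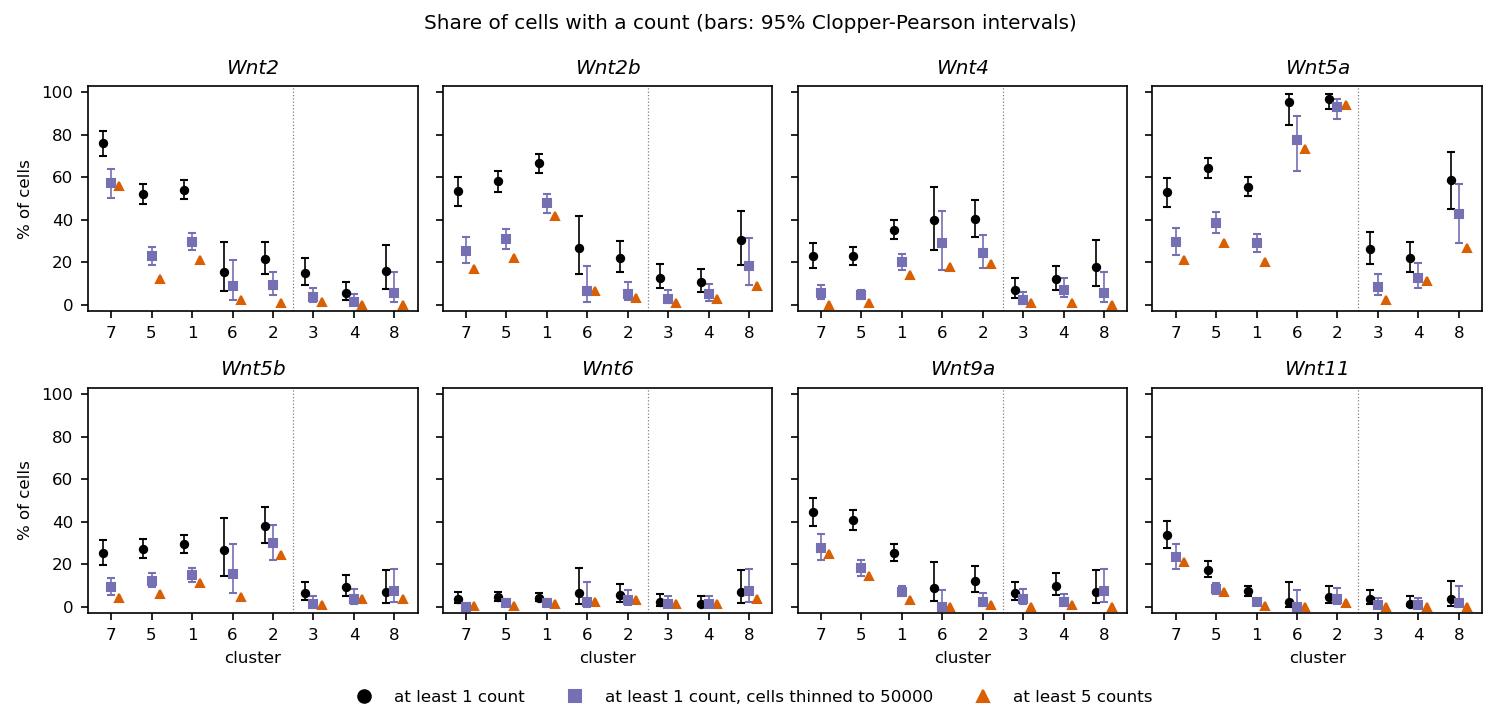
The percentage of cells, with all lines together (vertical axis), is plotted by cluster for each member as circles for at least 1 count, squares for at least 1 count after thinning to 50000 gene counts and triangles for at least 5 counts, with exact 95% binomial intervals on the circles and squares. *Wnt5a* reaches 93.1% of thinned cells in cluster 2 and *Wnt2* 57.3% in cluster 7, while *Wnt6* is at 7.41% or less throughout.

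For several members, but not for *Wnt4*, low counts in clusters where the member was low went with the plate row and column. Over 489 cells of clusters 3, 4 and 7, a cell's *Wnt5a* count correlated with the *Wnt5a* counts of wells in its own row and column on 7 of 7 plates (Spearman's rho 0.0369 to 0.603, median 0.366). On 1 of the PdgfrbGFP plates, 32.6% of such cells in rows and columns with high *Wnt5a* counts had a count, and 2.17% of those with low. The median rho was 0.347 for *Wnt2* (3 of 3 plates positive), 0.619 for *Wnt2b* (4 of 4) and 0.459 for *Wnt9a* (4 of 4), but 0.00675 for *Wnt4* (4 of 8 positive). The clusters were picked after the values were seen, cells of a plate share its depth, and the part of this in the low shares was not tested. With at least 5 counts asked for, *Wnt5a* was found in 93.9% of cluster 2 and 73.3% of cluster 6 cells, in 21.1%, 28.9% and 20.3% of clusters 7, 5 and 1, and in 26.8%, 11.3% and 2.13% of clusters 8, 4 and 3.

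How evenly a ligand was spread over cells differed as well. The median cell of cluster 2 had a *Wnt5a* level of 377.9, and the 14 cells with most held 28.4% of the summed level. The median cell of cluster 7 had a *Wnt2* level of 35.4, with 35.7% of the summed level in the 23 cells with most. In contrast the median cell had none for *Wnt4* in cluster 1, where the 49 cells with most (about 1 in 10) held 90.8%, for *Wnt5b* in cluster 2, where 14 cells held 70.1%, and for *Wnt9a* and *Wnt11* in cluster 7, where 23 cells held 73.9% and 79.98%. *Wnt2b* in cluster 1 lay between, with a median of 4.29 and 55.1% in its top 49 cells.

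Cells of the fibroblast clusters often held more than 1 member. After thinning, at least 1 of the 8 was found in 96.9% of cluster 2, 87.3% of cluster 7, 86.7% of cluster 6, 84.4% of cluster 1 and 76.2% of cluster 5 cells, against 61.1%, 26.4% and 16.4% in clusters 8, 4 and 3. At least 2 were found in 55.5% of cluster 7 and 52.7% of cluster 2, against 22.2% of cluster 8, 4.29% of cluster 3 and 5.00% of cluster 4. In cluster 2, 36 of the 39 cells with *Wnt5b* also had *Wnt5a* (92.3%), close to the 93.1% of all its cells. In cluster 1, 35.4% of the cells with *Wnt4* had *Wnt2b*, against 47.8% of all its cells.

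Across the 21 cluster and line means, *Wnt2* ran closest to *Wnt9a* among members (Pearson's r = 0.85 on the log2 scale with 1 added) and next to *Wnt2b* (0.76), while *Wnt4* and *Wnt5a* had 0.58, *Wnt5a* and *Wnt5b* 0.52 and *Wnt2* and *Wnt5a* -0.22. These r values describe 21 means that share lines and cells. Of all genes, those most like *Wnt9a* were *Slc16a10* (an aromatic amino acid transporter, 0.97), *Lmo2* (a transcriptional cofactor, 0.96) and *Fam198a* (0.95). *Slc16a10* was also among the 3 closest to *Wnt2* (0.89), with *Gm16083* (0.91) and *Cd55* (a complement regulator, 0.88). The 3 closest to *Wnt5a* were *Cd44* (the hyaluronan receptor, 0.89), *Ece1* (endothelin-converting enzyme, 0.88) and *Abcc4* (an exporter, 0.88). For *Wnt4* they were *Rgs17* (0.92), *Milr1* (0.89) and *Mycn* (0.88), for *Wnt5b* *8030451A03Rik*, *Enox1* and *Glis3* (0.87 each), and for *Wnt11* *Plcxd3* (0.89), *P4ha3* (0.86) and *Ces2g* (0.85). *Wnt2b* ran with *Ugt1a6a* (0.94), *Ugt1a7c* (0.94) and *Ugt1a1* (0.93), whose counts were not checked for reads in shared exons, and *Wnt6* with *Gm26632* (0.75), *Gm6939* (0.75) and *Gm26781* (0.71).

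The pathway around the ligands was read from 4 lists in the same comparison of cluster 2 with cluster 7. Of 8 genes needed to secrete Wnt proteins, 8 were tested and 0 were called in either direction in this or any of the other 6 tests, and their median difference was -0.11. At an unadjusted p under 0.05 there was 1 of them, with 4 of the secreted regulators, 6 of the receptors and 8 of the targets described next, against 15.5% of all genes. Over the other tests there were 0 to 4 secretion genes at this level, the 4 being between clusters 6 and 2, where 14.5% of all genes reached it. The shares of all genes called here were, as above, 2.12% higher and 1.55% lower. Of 16 secreted regulators tested, 0 were higher and 2 lower, namely *Sfrp4*, a soluble Frizzled-like Wnt binder (-6.56, SE 1.48, edgeR adjusted p = 0.0146), and *Trabd2b*, a protease that cuts Wnt proteins (-4.89, SE 1.31, adjusted p = 0.0402). Of 20 receptors, *Lgr5*, the R-spondin receptor, was higher (8.90, SE 1.49, adjusted p = 0.00131) and *Fzd4*, a Frizzled, lower (-2.82, SE 0.75, adjusted p = 0.0385). Of 15 targets and effectors of beta-catenin, *Lef1*, a TCF/LEF factor, rose by 9.06 (SE 1.09, adjusted p = 6.85e-05) and *Nkd1*, a feedback inhibitor, by 5.51 (SE 1.07, adjusted p = 0.00480), while 0 were lower. The medians of these 3 lists were -0.34, -0.09 and 0.56.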

How the data were processed

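Single cells of mouse colon were sorted into plates of 384 wells, excluding CD31-positive cells, and sequenced by Smart-seq2 without molecular identifiers. Per the study's methods, the authors trimmed the reads, aligned them to GRCm38 and assigned them to genes with featureCounts. The deposited values are these raw counts, as whole numbers. Strand-specific counting is not given in the sources used here, so reads of *Wnt5a* and *Wnt11* cannot be told from those of the overlapping Gm2670 and Gm8398 on the opposite strand. The 92 rows of spike-in RNA (1.36% of counts) were left out, no column was left unused, and no doublet caller was run.

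Groups came from the cluster and strain labels. The members and gene lists were chosen with earlier results of these data known. Raw counts were summed per cluster and reporter line with at least 10 cells (21 sums) or per cell class and line, filtered with filterByExpr, scaled by TMM and tested with the edgeR quasi-likelihood test (edgeR 4.0.16, R 4.3.3), with Benjamini-Hochberg adjustment over all genes at 0.05. All clusters shared 1 fit. Cluster 8 had 1 sum, so its planned comparison with cluster 3 is given as values with no test. DESeq2 1.42.0, limma 3.58.1, total counts, no filter, 3 cells per sum, plates as samples, a block for the line, each line left out and plate 075s left out were the alternatives. Levels are counts per 500000 gene counts; correlations used log2(level + 1), and shares were thinned to 50000 gene counts, leaving out 11 shallower cells. Depth was 47598 to 1494292 gene counts per cell (median 248628), and intervals cover counting error only.

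The text names the 8 members, other Wnt ligands with a mean level of at least 1 in a cluster (and, chosen after their values were seen, 4 with counts in no cell or 1 cell), the 3 genes closest in pattern to each member and, for each pathway list and direction, at most 2 genes called between clusters 2 and 7. Same-line sums of the cell classes deviated together (r = 0.152 to 0.175 over 3 pairs), so the class comparison was also fitted with the line as a block; the reporter line is what such sums share.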

Additional observations from a re-analysis of the deposited data

Results flagged for a closer look

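A line far from the other 3 of its group was found in 3 of 16 groups of 4 lines looked at. The cutoff flags about 1 in 20 groups of independent, normally spread values. These groups share cells and some hold values of 0, so that rate does not apply to them. *Wnt11* in cluster 5 was 23.4 counts per 500000 in Cspg4dsRED against 4.98 in the nearest line, and this value rested on 4 of 13 cells. *Wnt11* over all fibroblasts was 13.2 in Cspg4dsRED against 5.03 in the nearest line, and these fibroblasts included the same 13 cells. *Wnt6* in cluster 5 was 0.567 in PdgfrbGFP against 0.0854 in the nearest line, with 78 counts in 18 of 220 cells.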

How the results depend on the processing

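Over 672 log2 differences (8 members, 7 comparisons and the alternatives that could be run), 27 came to pass the threshold, 26 ceased to pass it and 40 changed sign, 0 of which passed in either setting; 6 had no adjusted p under DESeq2. Among those given above, *Wnt4* in cluster 6 against 1 became -0.49 without PdgfraGFP (up to 0.60 with another line left out), and *Wnt2b* in cluster 2 against 6 became 2.54 without Acta2GFP (down to -5.61 with another left out) and 1.74 with plates. Members called between clusters 2 and 7 numbered 3, and 6 with DESeq2, 6 with limma, 5 with plates as samples and 1 to 4 with a line left out. Between clusters 5 and 1 the count was 1, and 2 with DESeq2, 2 with plates, 0 with 3 cells per sum, 0 to 1 with a line left out and 0 with the replicate block (*Wnt4* adjusted p = 0.0535). Between clusters 1 and 6 it was 1, and 2 with DESeq2, limma or plates and 0 to 1 with a line left out. Between clusters 6 and 2 it was 0, and 1 with DESeq2. Between clusters 3 and 4 it was 1, and 2 with DESeq2, 0 with 3 cells per sum and 0 to 1 with a line left out. In fibroblasts against mural cells it was 4, and 7 with DESeq2, 6 with limma, 6 with plates, 3 with the replicate block and 0 to 4 with a line left out. No member was called between clusters 7 and 5 in any setting. Of all genes, DESeq2, limma and plates called 8.55%, 6.43% and 7.45% between clusters 2 and 7, 1.4%, 0.975% and 2.36% between 5 and 1, 7.7%, 3.12% and 3.84% between 1 and 6, 8.97%, 4.08% and 3.3% between 6 and 2, 5.57%, 3.24% and 2.7% between 3 and 4, and 15.5%, 7.94% and 16.1% between fibroblasts and mural cells. The replicate block called 0.34% of all genes between 5 and 1 and 3.08% between fibroblasts and mural cells. Without Acta2GFP, PdgfraGFP or PdgfrbGFP, fewer of all genes were called in both, and between clusters 2 and 7, than with all lines. Without Cspg4dsRED, more were called in these cluster comparisons and fewer between the classes. The cause of these shifts in calls was not tested.

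Same-line sums of 2 clusters deviated together weakly (r = 0.018 to 0.215, median 0.079 over 43 pairs); of the clusters compared, those with 3 shared lines had 1 or 2 of them over 0.1, and clusters 3 and 4 had both. With the replicate block (4.57% of all genes) 4 members were called between clusters 2 and 7, *Wnt9a* being added (adjusted p = 0.0322). Mean levels reached 10 in 21 of 64 member and cluster pairs, and in 20 to 23 under the alternatives, 18 pairs doing so in every setting, and at most 7 of 56 means moved by over 1 SD. Shares reached 25% in 27 pairs, 14 after thinning and 6 with at least 5 counts.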

Other observations

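Of the 11 Wnt ligands outside the 8 described, *Wnt10b* and *Wnt16* had a mean level of at least 1 in some cluster. *Wnt10b*, a canonical ligand, was found in 51 cells of cluster 7 (22.9%), at levels of 11.1 in Acta2GFP, 0 in PdgfraGFP and 8.65 in PdgfrbGFP, and its mean was 0.533 in cluster 5 and lower in every other cluster. *Wnt16* had a level of 20.4 in the single line of cluster 8, from 6 of its 52 cells, and took 25.7% of the per-kilobase Wnt pool there, beside *Wnt5a* with 32.7% and *Wnt5b* with 17.3%. In cluster 1 *Wnt16* was 1.64 in Acta2GFP, 0 in PdgfraGFP and 1.97 in PdgfrbGFP. *Wnt3*, *Wnt8b* and *Wnt9b* had 0 counts in all 1646 cells. *Wnt10a*, which lies at chr1:74791516-74804179 beside *Wnt6*, had 40 counts in 1 cell.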
